A study of Mus musculus with 24 samples.

Results

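The genes described here are 10 genes of the endoplasmic reticulum (ER) stress response, Ern1, Ern2, Atf6, Xbp1, Atf4, Ddit3, Trib3, Hspa5, Creld2 and Sdf2l1, measured in the distal jejunum of wild type and Ptk6-/- mice. They were picked out by gene symbol, which marked 11 of the 56691 rows of the count table. The extra row is another entry for Ddit3 that lies within the main one on the same strand. It held 2 counts in all 24 libraries together and was not tested, which left 10 rows, 1 per gene. The mice formed 8 groups of 3: wild type males and females and Ptk6-/- males and females, each given either regular water or 100 mM succinate for 7 days. All were 9 to 11 weeks old, and the Ptk6-/- line is a germline knockout on the C57BL/6 background, so that PTK6, an intracellular tyrosine kinase of epithelial cells, is missing from every tissue of those mice. RNA came from whole tissue pieces, 1 library per mouse.

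The ER folds secreted and membrane proteins, and when unfolded proteins build up in its lumen sensors in its membrane start the unfolded protein response. IRE1 (alpha encoded by Ern1, beta by Ern2) splices the mRNA of the transcription factor XBP1, ATF6 is cut in the Golgi to release a transcription factor, and PERK slows translation while letting ATF4 be made. XBP1 and ATF6 drive chaperone and degradation genes, whereas ATF4 drives amino acid genes, Ddit3 (CHOP) and Trib3. In the gut, Ern2 is largely an epithelial gene of mucus-making cells, and goblet cells, Paneth cells and plasma cells carry the heaviest secretory load.

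Total counts ran from 8080321 to 52824743 per library. The deleted gene matched the labels: Ptk6 had 7 to 61 counts in the 12 Ptk6-/- libraries and 284 to 2405 in the 12 wild type libraries. Enterocyte markers (14 genes) summed to between 19487 and 59820 CPM (counts scaled to the size of the library) in every library, and goblet markers (13 genes) to between 9971 and 26352 CPM. A few libraries stood apart from the rest. An 18S ribosomal RNA entry took 51.2% of the counts of wild type control male 1 and 29.7% of those of Ptk6-/- succinate male 1, which was also the shallowest library. Heart markers (10 genes) summed to 23444 CPM in wild type succinate female 2 and to at most 246 CPM in any other. For the main differences of the 10 genes that use one of these libraries, a value without it is also given. In whole tissue, fewer cells of a type and less RNA per cell cannot be told apart.

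None of the 10 genes passed the test in any of the 14 comparisons made, which were 8 of 2 groups, 3 interactions and 3 over all mice. The test was edgeR's quasi-likelihood test over all genes with enough counts, and a call needed a difference of 2-fold or more in either direction together with an adjusted p (Benjamini-Hochberg) under 0.05. What follows gives the level of each gene in each group, the differences with their errors, and how the genes varied with each other.

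Upstream sequence was available for 8 of the 10 genes, all but Ern2 and Atf6, as windows of 300 bases from RefSeq (GRCm38.p6) that run from 250 bases before the transcription start to 50 after it. Windows were searched for 4 kinds of response element on both strands. The ER stress response element ERSE (CCAAT and CCACG with 9 bases between) was found in 2 of the 8 windows, those of Hspa5 and Creld2, against 0.119% of all 32851 windows. Both are shown because they hold the element through which ATF6 and XBP1 are known to act, with its fixed letters in capitals, which in Creld2 lie on the opposite strand. The Trib3 window is shown for its single match to the ATF4-type element TGATGNAA, which 3.97% of all windows hold, again with its fixed letters in capitals and on the opposite strand.
Hspa5, chr2:34771840-34772139, plus strand: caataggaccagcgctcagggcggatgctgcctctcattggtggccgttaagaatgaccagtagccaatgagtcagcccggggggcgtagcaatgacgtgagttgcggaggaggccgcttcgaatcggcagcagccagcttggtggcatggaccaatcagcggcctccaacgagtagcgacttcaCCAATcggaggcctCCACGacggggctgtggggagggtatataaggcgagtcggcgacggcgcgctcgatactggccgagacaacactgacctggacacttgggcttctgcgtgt
Creld2, chr15:88819396-88819695, plus strand: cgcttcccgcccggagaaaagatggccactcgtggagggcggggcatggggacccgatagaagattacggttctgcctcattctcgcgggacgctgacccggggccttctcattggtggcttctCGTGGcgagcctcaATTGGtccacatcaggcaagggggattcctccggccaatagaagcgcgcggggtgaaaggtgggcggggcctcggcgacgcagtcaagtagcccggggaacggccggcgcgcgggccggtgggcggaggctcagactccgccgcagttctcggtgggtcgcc
Trib3, chr2:152344011-152344310, minus strand: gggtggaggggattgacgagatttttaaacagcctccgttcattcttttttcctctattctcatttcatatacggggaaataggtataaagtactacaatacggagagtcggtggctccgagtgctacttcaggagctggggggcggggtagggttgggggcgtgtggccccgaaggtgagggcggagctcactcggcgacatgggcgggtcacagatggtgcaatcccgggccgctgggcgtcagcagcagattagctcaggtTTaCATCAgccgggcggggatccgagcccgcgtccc
The Hspa5 element lies 65 to 47 bases before the start, the Creld2 element 126 to 108 bases before it, and the Trib3 match 15 to 22 bases after it. No window of the 8 held ERSE-II (ATTGG and CCACG with 1 base between; 0.0365% of all windows) or the XBP1-type element TGACGTGG (0.676%). A match is a match of letters only, and its use in this tissue was not measured.

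In the coordinates deposited with the counts (GRCm39 in the submitters' processing notes), Hspa5 spans 34661982 to 34667559 on chromosome 2, Creld2 88703849 to 88710886 on chromosome 15 and Sdf2l1 16948002 to 16950247 on chromosome 16. Ern1 (chromosome 11, 106285476 to 106378662) and Atf6 (chromosome 1, 170532243 to 170695340) are the longest of the 10 loci. Ddit3 (chromosome 10, 127126643 to 127132157) shares part of its locus with Mars1 and Gm4189 on the opposite strand. The libraries were stranded, but the program and strand setting that produced the counts are not given in the sources used here, so some sharing of reads at Ddit3 cannot be told apart from its own.

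The genes fell into 2 tiers of abundance when compared per length, in FPKM, the length-scaled unit that was deposited. Hspa5, which encodes the ER chaperone BiP, had the highest median over the 24 libraries at 90.1 FPKM. Next in order of median came Atf4 at 70.0, Xbp1 at 53.1, Creld2 (an ER disulfide isomerase-like protein) at 36.1 and Sdf2l1 (a partner of BiP) at 31.0 FPKM. Ddit3, at 7.66 FPKM, stood between the tiers. The sensors Atf6, Ern2 and Ern1 followed with medians of 2.69, 2.49 and 2.44 FPKM, and Trib3, a pseudokinase made in response to ATF4 and CHOP, was lowest at 1.92 FPKM. Sdf2l1 exceeded Ddit3, and Ddit3 exceeded Atf6, in all 24 libraries. Other neighbours in the order were less separate: Hspa5 exceeded Atf4 in 22 libraries, Xbp1 exceeded Creld2 in 16, Atf6 exceeded Ern2 in 10 and Ern2 exceeded Ern1 in 15.

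As the ratio of the highest to the lowest of the 24 libraries, Xbp1 had the narrowest range (2.36-fold, from 116 to 273 CPM) and Ern2 the widest (7.01-fold, from 3.68 to 25.8 CPM). The range in CPM was 230 to 926 for Hspa5, 136 to 375 for Atf4, 45.3 to 173 for Creld2, 24.9 to 79.8 for Sdf2l1, 15.1 to 54.1 for Ern1, 15.9 to 49.7 for Atf6, 9.80 to 40.5 for Ddit3 and 2.53 to 13.4 for Trib3. The highest levels of Hspa5, Creld2 and Sdf2l1 all came from 1 library, Ptk6-/- succinate female 2. The lowest levels of Xbp1, Trib3 and Sdf2l1 all came from wild type succinate female 2, the library with heart transcripts.

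**Figure D1:**
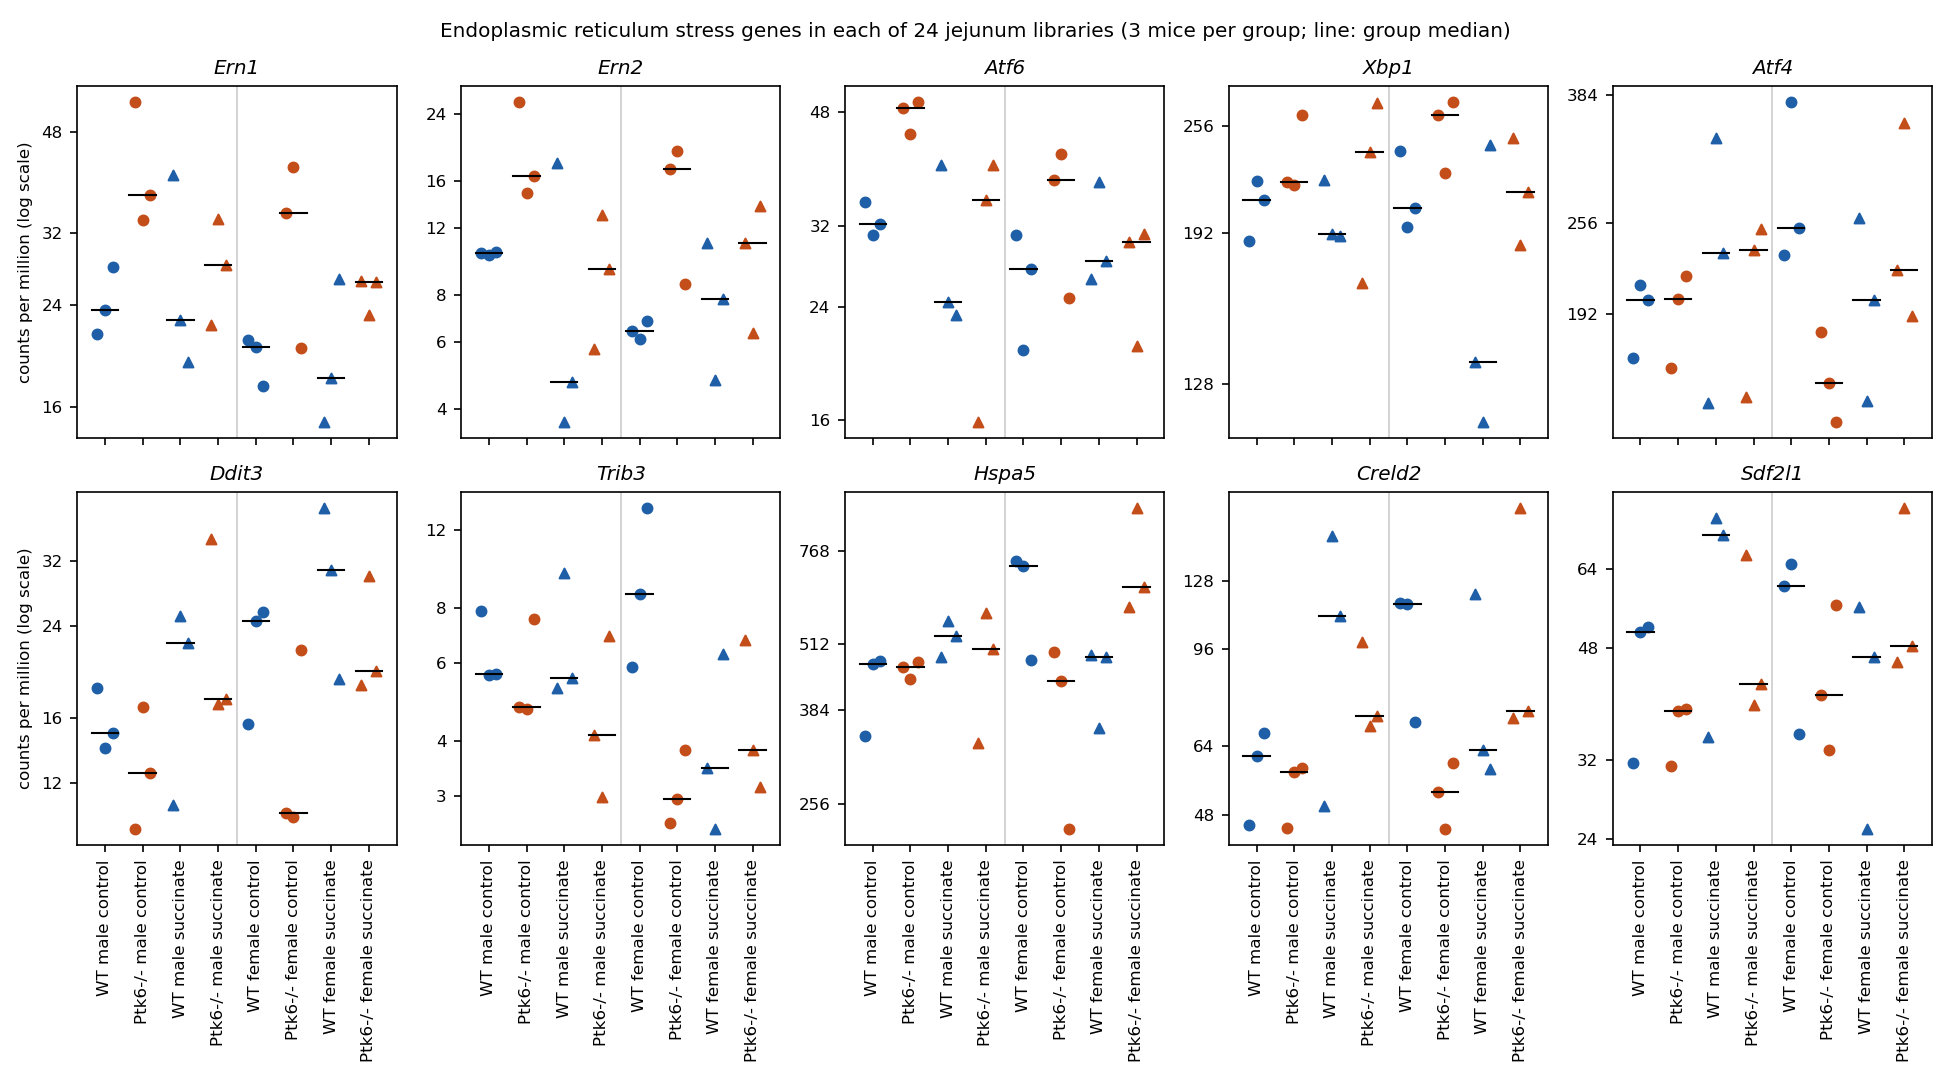
Level of each gene in every library, in CPM on a log scale, by group. Circles are mice on regular water, triangles mice on succinate, blue wild type and orange Ptk6-/-, and lines are group medians of 3 mice. Ern2 is tight in wild type controls of each sex (10.2 to 10.4 CPM in males) and spread in the other groups, and most groups overlap for most genes.

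The first question was whether loss of Ptk6 alters these genes without treatment. In males on regular water, the sensor genes Ern1, Ern2 and Atf6 were higher in Ptk6-/- mice without overlap between the groups. Ern1, the broadly expressed IRE1, read 21.4, 23.6 and 27.9 CPM in wild type and 54.1, 33.7 and 37.3 CPM in Ptk6-/- males. Ern2, the epithelial IRE1, read 10.3, 10.2 and 10.4 CPM in wild type and 25.8, 14.8 and 16.5 CPM in Ptk6-/- males. Atf6 read 34.9, 31.0 and 32.2 CPM in wild type and 48.7, 44.3 and 49.7 CPM in Ptk6-/- males. Ptk6-/- male 1 was the highest library for both IRE1 genes, and every Ptk6-/- male lay above every wild type male. The log2 differences were 0.76 ± 0.19 (standard error) for Ern1, 0.88 ± 0.22 for Ern2 and 0.52 ± 0.12 for Atf6, with edgeR adjusted p-values of 0.0586, 0.0586 and 0.0520. All 3 had an unadjusted edgeR p under 0.05, as did 25.2% of the genes tested, and 31.4% of the genes tested were without overlap. In this comparison 0.739% of genes were called. With an offset for the length trend described further on, the difference of Atf6 was 0.27 and that of Ern1 0.52. Paneth markers lay lower in Ptk6-/- males in 12 of 12, 7 of them at an unadjusted edgeR p under 0.05 and 2 of them called, with a median log2 difference of -1.004 that was -0.52 with the same offset, and their part in the differences was not tested.

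The other 7 genes overlapped in control males. Xbp1 differed by 0.17 ± 0.13, Atf4 by -0.0097 ± 0.14 and Hspa5 by 0.085 ± 0.15 on the log2 scale. Hspa5 read 344, 470 and 476 CPM in wild type and 464, 441 and 474 CPM in Ptk6-/- males, and the lowest of the 6 was the library rich in 18S RNA. Ddit3, Trib3, Creld2 and Sdf2l1 had differences of -0.29 ± 0.22, -0.18 ± 0.26, -0.13 ± 0.15 and -0.33 ± 0.18. None of these 7 genes had an unadjusted edgeR p under 0.05. With DESeq2 the adjusted p was 0.00309 for Ern1, 0.00319 for Ern2 and 0.00243 for Atf6, still under a 2-fold difference, and 0 of the 10 genes were called by DESeq2 or by voom. Leaving out each library in turn gave adjusted p-values from 0.0355 to 0.163 for the 3 sensor genes. Without the library rich in 18S RNA the differences were 0.73 for Ern1, 0.92 for Ern2 and 0.62 for Atf6, and that of Sdf2l1 was -0.49 ± 0.12 (edgeR adjusted p = 0.0573). Sdf2l1 overlapped through that library alone, at 31.6, 50.9 and 51.8 CPM in wild type and 31.3, 38.2 and 38.5 CPM in Ptk6-/- males.

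In control females Ern2 read higher and Trib3, Creld2 and Atf4 lower in Ptk6-/- mice without overlap, none of them past the test, with 1 Ptk6-/- library apart from its fellows. Ern2 read 6.41, 6.11 and 6.82 CPM in wild type and 17.1, 19.2 and 8.52 CPM in Ptk6-/- females, a log2 difference of 1.25 ± 0.34. Trib3 read 5.89, 8.57 and 13.4 CPM in wild type and 2.60, 2.95 and 3.81 CPM in Ptk6-/- females, a log2 difference of -1.54 ± 0.36. Both were without overlap, and their edgeR adjusted p was 0.367. Creld2 read 117, 116 and 70.6 CPM in wild type and 52.8, 45.3 and 59.6 CPM in Ptk6-/- females (-0.91 ± 0.27). Atf4 read 231, 375 and 252 CPM against 181, 154 and 136 CPM (-0.83 ± 0.28). These 2 genes were also without overlap, every Ptk6-/- female below every wild type female. Ern1 read 20.9, 20.3 and 17.4 CPM in wild type and 34.7, 41.7 and 20.2 CPM in Ptk6-/- females (0.76 ± 0.30), and the groups overlapped through Ptk6-/- female 3. The chaperone genes Hspa5 (-0.70 ± 0.37) and Sdf2l1 (-0.28 ± 0.31) overlapped as well. With an offset for gene length, described further on, the unadjusted edgeR p was 0.0585 for Creld2 and 0.0662 for Atf4. B cell markers moved in the same comparison: 9 of 9 lay higher in Ptk6-/- females, 6 of them at an unadjusted edgeR p under 0.05, with a median log2 difference of 2.40 and sums of 32.3 to 92.5 against 15.6 to 31.5 CPM. Their part in the differences was not tested.

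Of the 10 genes, 5 had an unadjusted edgeR p under 0.05 in control females (Ern1 and Ern2 higher, Atf4, Trib3 and Creld2 lower), against 11.1% of the genes tested, and 4 were without overlap, against 18.9%. Over all genes 0.0158% were called. The result depended on Ptk6-/- control female 3, which had the lowest Hspa5 (230 CPM) of all 24 libraries and read 21.7 CPM for Ddit3 where its 2 fellows read 10.5 and 10.3. Without that library 4 of the 10 genes were called, in a comparison where 9.65% of all genes were: Ern1 (1.02 ± 0.18, adjusted p = 0.0275), Ern2 (1.55 ± 0.19, adjusted p = 0.0275), Trib3 (-1.69 ± 0.38, adjusted p = 0.0320) and Ddit3 (-1.02 ± 0.26, adjusted p = 0.0418). The spread in that fit comes from 2 Ptk6-/- and 3 wild type females. With DESeq2 on all 6 libraries Trib3 was called (adjusted p = 0.0261; 0.870% of all genes were called), and with voom and sample quality weights Ern1, Ern2 and Trib3 were called (10.4% of all genes). The edgeR adjusted p of Ern1, Ern2 and Trib3 over the libraries left out in turn ran from 0.0275 to 0.849.

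**Figure D2:**
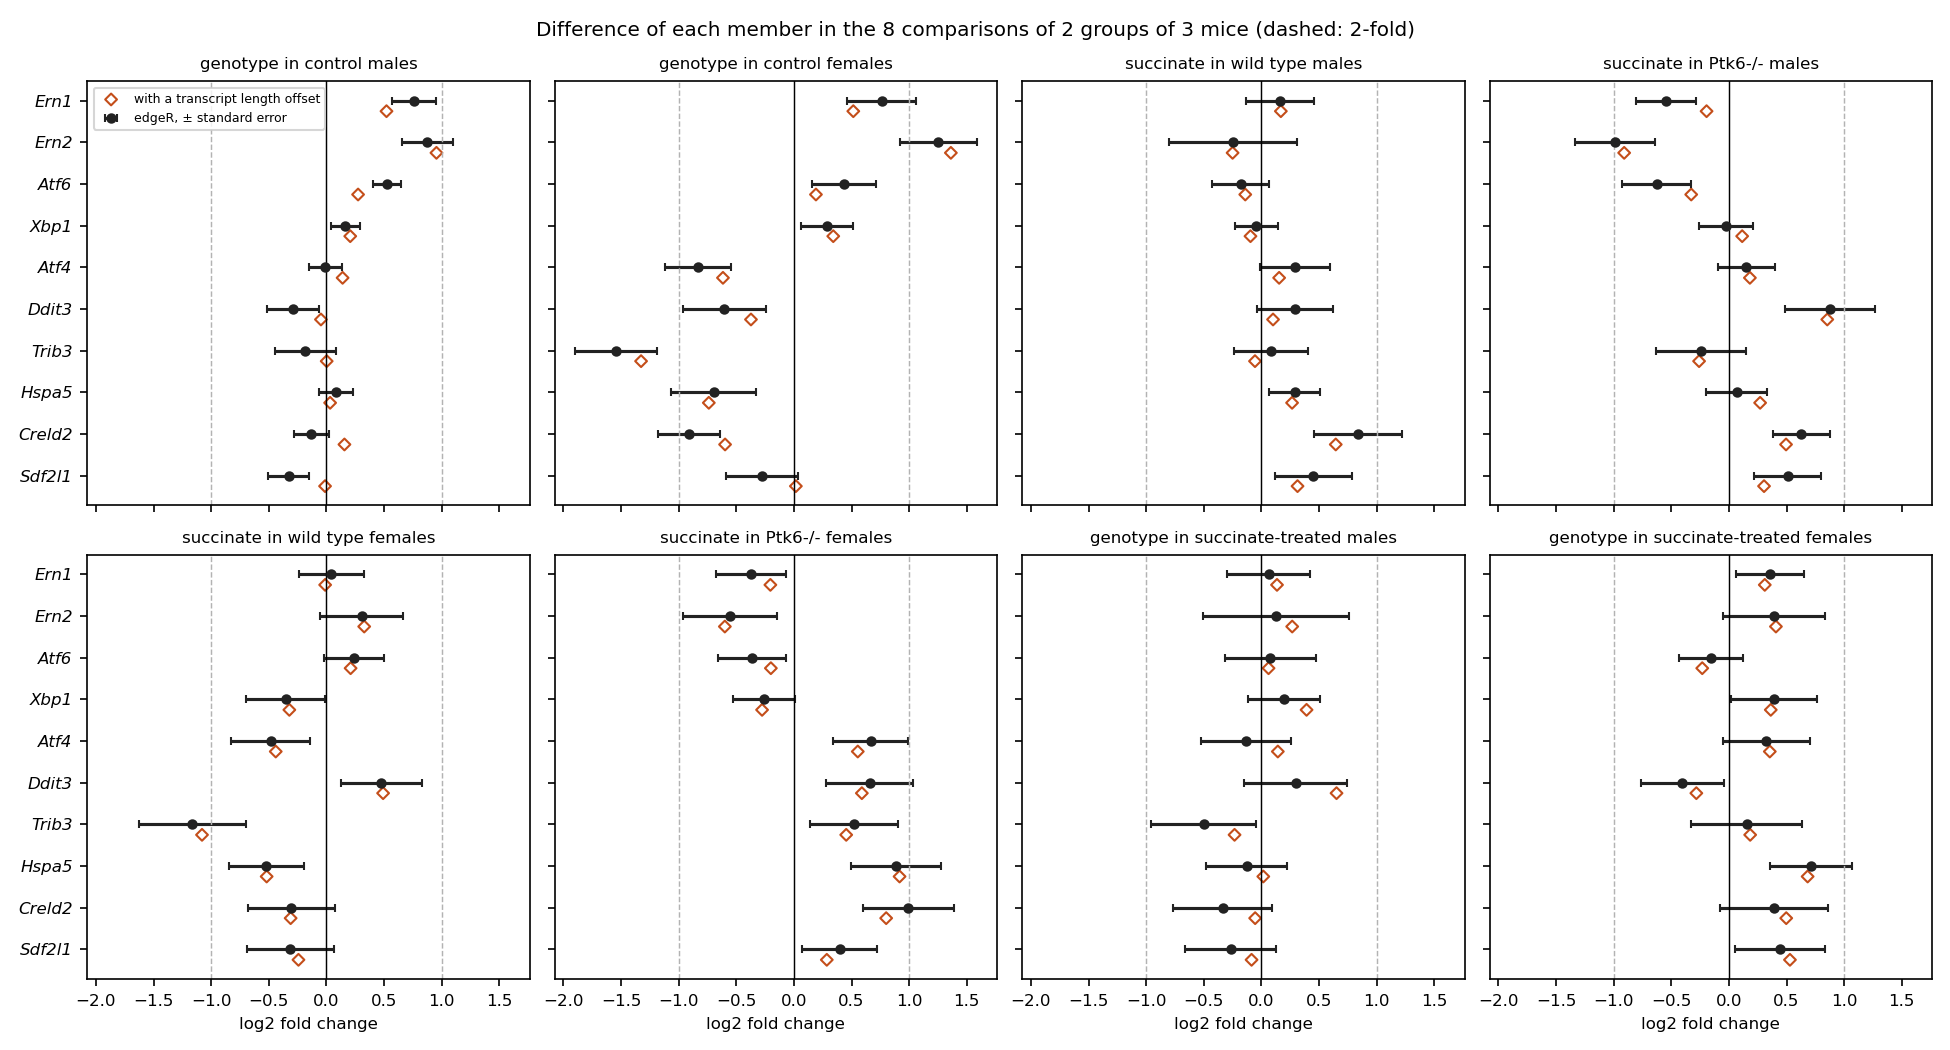
Log2 fold change of each gene in the 8 comparisons of 2 groups, 3 mice each. Filled points with bars are edgeR estimates with their standard errors, open diamonds are estimates after correction for gene length by library, and dashed lines mark a 2-fold difference. In control males Ern1, Ern2 and Atf6 lie 0.52 to 0.88 right of 0, and none of the differences passed the test. Each control group enters a genotype and a succinate comparison, the Ptk6-/- controls with opposite sign, so these panels are not independent.

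The second question was what 7 days of succinate does to these genes in each genotype and sex. In wild type males, Creld2 and Sdf2l1 had higher means on succinate, and 1 treated library differed from its 2 fellows. Creld2 read 45.9, 61.3 and 67.6 CPM on water and 49.7, 155 and 110 CPM on succinate, a log2 difference of 0.84 ± 0.38 (edgeR adjusted p = 0.947). Sdf2l1 read 31.6, 50.9 and 51.8 CPM on water and 34.8, 77.1 and 72.3 CPM on succinate (0.45 ± 0.33). Ern2 went the other way in the same 2 libraries, at 17.8, 3.68 and 4.70 CPM on succinate against 10.2 to 10.4 CPM on water. Without wild type control male 1, the library rich in 18S RNA, the log2 differences were 0.72 for Creld2, 0.28 for Sdf2l1 and -0.20 for Ern2. Without succinate male 2 they were 0.45, 0.25 and 0.13. Succinate male 1 had the lowest Creld2 and Sdf2l1 and the highest Ern2 of its group. No gene had an unadjusted edgeR p under 0.05 (4.07% of genes tested did), and 1 gene, Hspa5 (485, 566 and 531 CPM on succinate), was without overlap against 8.77% of genes tested. Over all genes 0% were called. Without succinate male 1, 2 of the 10 genes were called, Creld2 (1.14 ± 0.19, adjusted p = 0.0128) and Ern2 (-1.33 ± 0.21, adjusted p = 0.0121), while 5.80% of all genes were. With voom 1 of the 10, Ern2, was called (-1.11, adjusted p = 0.0142), against 7.81% of all genes, and with DESeq2 0 were. B cell markers lay higher on succinate in 9 of 9 (4 at an unadjusted edgeR p under 0.05, median 1.39), with sums of 128 to 149 against 23.0 to 102 CPM. Tuft markers lay higher in 11 of 12 tested (6 at that p, median 1.02), and the part of these markers in the differences was not tested.

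In Ptk6-/- males, Ern2 and Atf6 read lower and Ddit3, Creld2 and Sdf2l1 higher on succinate without overlap, and none of them passed the test. The Ptk6-/- control males are the same libraries as in the genotype comparison on water. Ern2 read 5.76, 12.9 and 9.34 CPM on succinate against 25.8, 14.8 and 16.5 CPM on water, a log2 difference of -0.99 ± 0.35. Ddit3, the CHOP gene, read 35.4, 17.0 and 17.4 CPM on succinate against 9.80, 16.8 and 12.5 CPM on water (0.88 ± 0.39). Creld2 read 99.0, 69.6 and 72.5 CPM on succinate against 45.5, 57.3 and 58.3 CPM on water (0.63 ± 0.25). The log2 difference was -0.63 ± 0.30 for Atf6 and 0.51 ± 0.29 for Sdf2l1. Ern1 overlapped, at 22.2, 33.9 and 28.2 CPM on succinate against 54.1, 33.7 and 37.3 CPM on water (-0.54 ± 0.26). With the offset for gene length Ern1 was at -0.19 and Atf6 at -0.33. The 5 genes without overlap stand against 23.0% of genes tested. Ern2 and Creld2 had an unadjusted edgeR p under 0.05, against 7.75% of genes tested. The smallest edgeR adjusted p of the 10 was 0.600, 0% of all genes were called, and DESeq2 and voom called 0 of the 10. The extreme Ddit3 value and the lowest Ern2 and Atf6 of the treated males came from succinate male 1, the shallow library. Without it the log2 difference was 0.38 for Ddit3, -0.81 for Ern2, -0.37 for Atf6, 0.38 for Creld2 and 0.15 for Sdf2l1. Heart markers lay higher on succinate in 9 of 9 tested (4 at an unadjusted edgeR p under 0.05, median 2.29), with sums of 47.1 to 246 against 16.1 to 38.3 CPM. Paneth markers lay higher in 11 of 12 (0 at that p, median 0.78) and goblet markers in 10 of 13 (3 at that p, median 0.27). The part of these markers in the differences was not tested.

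In wild type females, no gene passed the test or was without overlap, and Trib3 had the smallest p of the 10. It read 3.47, 2.53 and 6.28 CPM on succinate against 5.89, 8.57 and 13.4 CPM on water, a log2 difference of -1.16 ± 0.46 with an edgeR adjusted p of 0.626. It was the 1 gene of the 10 with an unadjusted edgeR p under 0.05 (7.77% of genes tested). Without succinate female 2, the library with heart transcripts, it was -0.91 ± 0.46. Ddit3 read 40.5, 30.7 and 19.0 CPM against 15.5, 24.6 and 25.5 CPM, and the groups overlapped. Among the genes tested 13.3% were without overlap, and 0 of the 10 were. Calls were made for 0% of all genes, and for 0 of the 10 by DESeq2 or voom. On succinate the tuft markers lay higher in 13 of 13 tested (11 at an unadjusted edgeR p under 0.05, median 2.41) and the B cell markers in 9 of 9 (3 at that p, median 2.13). Enterocyte markers lay lower in 12 of 14 (1 at that p, median -0.64). The part of these markers in the differences was not tested.

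In Ptk6-/- females, Hspa5, Creld2 and Atf4 read higher on succinate without overlap, and none of them passed the test. Hspa5 read 604, 926 and 657 CPM on succinate against 495, 436 and 230 CPM on water, a log2 difference of 0.89 ± 0.39. Creld2 read 72.0, 173 and 74.0 CPM on succinate against 52.8, 45.3 and 59.6 CPM on water (0.99 ± 0.39). Atf4 read 221, 351 and 190 CPM against 181, 154 and 136 CPM (0.67 ± 0.32). These 3 genes were the ones without overlap, against 21.2% of genes tested, and succinate female 2 was the highest library for each. Without it the log2 differences were 0.68 for Hspa5, 0.45 for Creld2 and 0.36 for Atf4. On the water side, Ptk6-/- control female 3 had the lowest Hspa5 (230 CPM) and the lowest Atf4 (136 CPM) of all 24 libraries. No value without that control is given here. Creld2 alone had an unadjusted edgeR p under 0.05 (10.7% of genes tested), its adjusted p was 0.450, and 0.0879% of all genes were called. DESeq2 and voom called 0 of the 10. The crypt and cycling markers (10 genes) summed to 793 to 854 CPM in these succinate females and 354 to 757 CPM in their controls, and the enterocyte markers to 19487 to 24608 CPM against 25124 to 59820 CPM. Of the Paneth markers 10 of 12 lay higher on succinate, 6 of them at an unadjusted edgeR p under 0.05, with a median log2 difference of 1.42 and sums of 17874 to 60041 against 9357 to 25488 CPM. Succinate female 2 had the highest Paneth sum of all 24 libraries and the highest pancreatic acinar sum, 90.2 CPM. Tuft cell markers lay higher in 13 of 13 tested, 11 of them at an unadjusted edgeR p under 0.05, with a median of 2.70. The part of these markers in the differences was not tested.

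Between the genotypes on succinate, 1 of the 10 genes was without overlap, Hspa5 in females. In males none of the 10 had an unadjusted edgeR p under 0.05 (2.72% of genes tested) and none was without overlap (8.66%). Over all genes 0% were called. DESeq2 called 0 of the 10, and voom called Ern2 (1.21, adjusted p = 0.0366), in a fit that called 9.52% of all genes. The edgeR difference of Ern2 was 0.13 ± 0.63, or 0.30 without Ptk6-/- succinate male 1, and voom was not run without that library. Leaving out each library in turn gave -0.25 to 1.22, the highest without wild type succinate male 1. Tuft markers lay lower in Ptk6-/- succinate males in 12 of 13 tested (2 at an unadjusted edgeR p under 0.05, median -0.90). B cell markers summed to 19.8 to 46.3 CPM there against 128 to 149 CPM in wild type succinate males. The part of these markers in the Ern2 difference was not tested. In females none had an unadjusted edgeR p under 0.05 (4.52%), and Hspa5 was the 1 gene without overlap (10.8%), at 604, 926 and 657 CPM in Ptk6-/- and 490, 355 and 484 CPM in wild type mice, a log2 difference of 0.72 ± 0.36 (adjusted p = 0.931), or 0.56 without wild type succinate female 2. Crypt and cycling markers lay higher in Ptk6-/- succinate females in 10 of 10 (2 at an unadjusted edgeR p under 0.05, median 0.55), with sums of 793 to 854 against 280 to 576 CPM. Enterocyte markers summed to 19487 to 24608 against 28577 to 38466 CPM, and the part of either in the difference was not tested. In that comparison 0% of all genes were called, and 0 of the 10 by DESeq2 or voom.

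The differences were compared with each other by interaction terms. The genotype difference in controls was lower in females than in males for Trib3 (-1.35 ± 0.46), Atf4 (-0.82 ± 0.31) and Creld2 (-0.78 ± 0.31), each with an edgeR adjusted p of 0.999. Without wild type control male 1 they were -1.56, -0.76 and -0.66. These 3 were the genes with an unadjusted edgeR p under 0.05, against 4.64% of genes tested, and 0% of all genes were called. The interaction of Ern1 was -0.00016 ± 0.42, with a range of -0.23 to 0.26 over the libraries left out in turn and 0.43 by voom. The succinate effect in females differed between the genotypes by 1.43 ± 0.50 for Hspa5, 1.17 ± 0.47 for Atf4, 1.72 ± 0.62 for Trib3 and 1.32 ± 0.56 for Creld2, in each case higher in Ptk6-/- females. Without wild type succinate female 2 they were 1.27, 0.97, 1.45 and 1.15. These 4 had an unadjusted edgeR p under 0.05 (6.46% of genes tested) and an adjusted p of 0.752, which was also the smallest over all genes, and 0% were called. Both this interaction and the genotype comparison of controls use the same control females, among them Ptk6-/- control female 3. That library had the lowest Hspa5 and Atf4 of all 24, and no interaction without it is given here. In males no gene of the 10 had an unadjusted p under 0.05 for this interaction (3.80% of genes tested), with Hspa5 at -0.21 ± 0.34 and Creld2 at -0.21 ± 0.48, and 0% of all genes were called. DESeq2 and voom called 0 of the 10 in each of the 3 interactions. In the female succinate interaction crypt and cycling markers lay above 0 in 10 of 10 (1 at an unadjusted edgeR p under 0.05). Their median was 0.33. B cell markers lay below 0 in 9 of 9 (0 at that p, median -2.59). Heart markers did in 9 of 9 tested (8 at that p, median -8.78). For genotype by sex Paneth markers lay above 0 in 12 of 12 (0 at that p, median 0.53). B cell markers did in 9 of 9 (3 at that p, median 2.87). The part of these markers in the interactions was not tested.

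Over all 24 mice, a model with a mean for each group gave the genotype effect averaged over the sexes and treatments. On that average Ptk6-/- mice had higher Ern1 (0.47 ± 0.15, edgeR adjusted p = 0.284) and Ern2 (0.66 ± 0.24, adjusted p = 0.314) and lower Trib3 (-0.53 ± 0.21, adjusted p = 0.325). The means were 31.8 CPM in Ptk6-/- against 22.8 CPM in wild type mice for Ern1, 13.4 against 8.32 CPM for Ern2 and 4.51 against 6.64 CPM for Trib3. These 3 of the 10 had an unadjusted edgeR p under 0.05, against 13.4% of genes tested, and 0.0184% of all genes were called. Without the 3 libraries that stand apart, the differences of Ern1, Ern2 and Trib3 were 0.47, 0.65 and -0.53. With voom the adjusted p of Ern1 was 0.000232 and that of Ern2 0.000236, at differences of 0.67 and 0.92, still under 2-fold. Paneth markers lay lower in Ptk6-/- mice in 11 of 12 (1 at an unadjusted edgeR p under 0.05). Their median was -0.38, or -0.17 with the offset for gene length, and their part in the differences was not tested.

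Succinate over all mice went with higher Ddit3 (0.57 ± 0.19, edgeR adjusted p = 0.172) and Creld2 (0.53 ± 0.19, adjusted p = 0.197), at means of 23.9 against 16.2 CPM and 93.1 against 66.4 CPM. These were the 2 of 10 with an unadjusted edgeR p under 0.05, against 16.1% of genes tested, and 0.728% of all genes were called. Without the 3 libraries that stand apart the differences were 0.50 for both genes, with adjusted p-values of 0.347 and 0.373. Tuft markers lay higher on succinate in 14 of 14 (10 called, median 1.62) and Paneth markers in 11 of 12 (3 called, median 0.78), while enterocyte markers lay lower in 11 of 14 (6 at an unadjusted edgeR p under 0.05, median -0.51). Their part in the differences was not tested. Hspa5 differed by 0.18 ± 0.15, Xbp1 by -0.17 ± 0.13 and Atf4 by 0.16 ± 0.16. Between the sexes, females had lower Ern1 (-0.33 ± 0.15, edgeR adjusted p = 0.308, and -0.35 without the 3 libraries). It was the 1 gene of 10 with an unadjusted edgeR p under 0.05 (15.3% of genes tested), and 0.360% of all genes were called. Tuft markers lay higher in females in 13 of 14 (3 called, median 1.13) and Paneth markers in 11 of 12 (3 called, median 0.80). Smooth muscle markers did in 10 of 10 (0 called, median 0.53). The part of these markers in the Ern1 difference was not tested. DESeq2 and voom called 0 of the 10 in each of the 3 comparisons over all mice.

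Part of the variation between libraries followed gene length. For each library, a slope of relative log2 CPM against log2 length was computed over all genes tested; it ran from -0.15 to 0.15. Of the genes tested, 90.9% were no longer than Atf6 and 87.4% no longer than Ern1, but 23.6% were no longer than Ddit3, 18.2% than Creld2 and 14.6% than Sdf2l1. Over the 24 libraries, Pearson's r between the slope and log2 CPM was 0.87 for Atf6, 0.83 for Ern1 and 0.75 for Ern2. It was -0.82 for Ddit3, -0.72 for Creld2, -0.69 for Sdf2l1 and 0.0089 for Hspa5. The 3 Ptk6-/- control males had slopes of 0.095 to 0.15 and the 3 wild type control males of -0.068 to -0.0056. Ptk6-/- control female 3 had a slope of -0.10 where its fellows had 0.075 and 0.13.

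An offset for this trend in the edgeR fit moved both short and long genes. In control males the genotype difference of Sdf2l1 went from -0.33 to -0.012 and that of Creld2 from -0.13 to 0.16. The offset also lowered the genotype difference of Atf6 from 0.52 to 0.27 and of Ern1 from 0.76 to 0.52, and that of Ern2, a gene of middling length, went from 0.88 to 0.95. In control females the difference of Creld2 went from -0.91 to -0.60 and that of Trib3 from -1.54 to -1.33. For Hspa5 the succinate difference went from 0.89 to 0.92 in Ptk6-/- females and from 0.067 to 0.27 in Ptk6-/- males. Its genotype difference in succinate-treated males went from -0.13 to 0.016 and its interaction in males from -0.21 to 0.026, both with a change of sign. After the trend was removed the r with the slope was 0.71 for Ern2, 0.64 for Atf6, 0.54 for Ern1, -0.66 for Ddit3 and -0.53 for Creld2, so its removal left a relation with the slope for these genes.

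**Figure D3:**
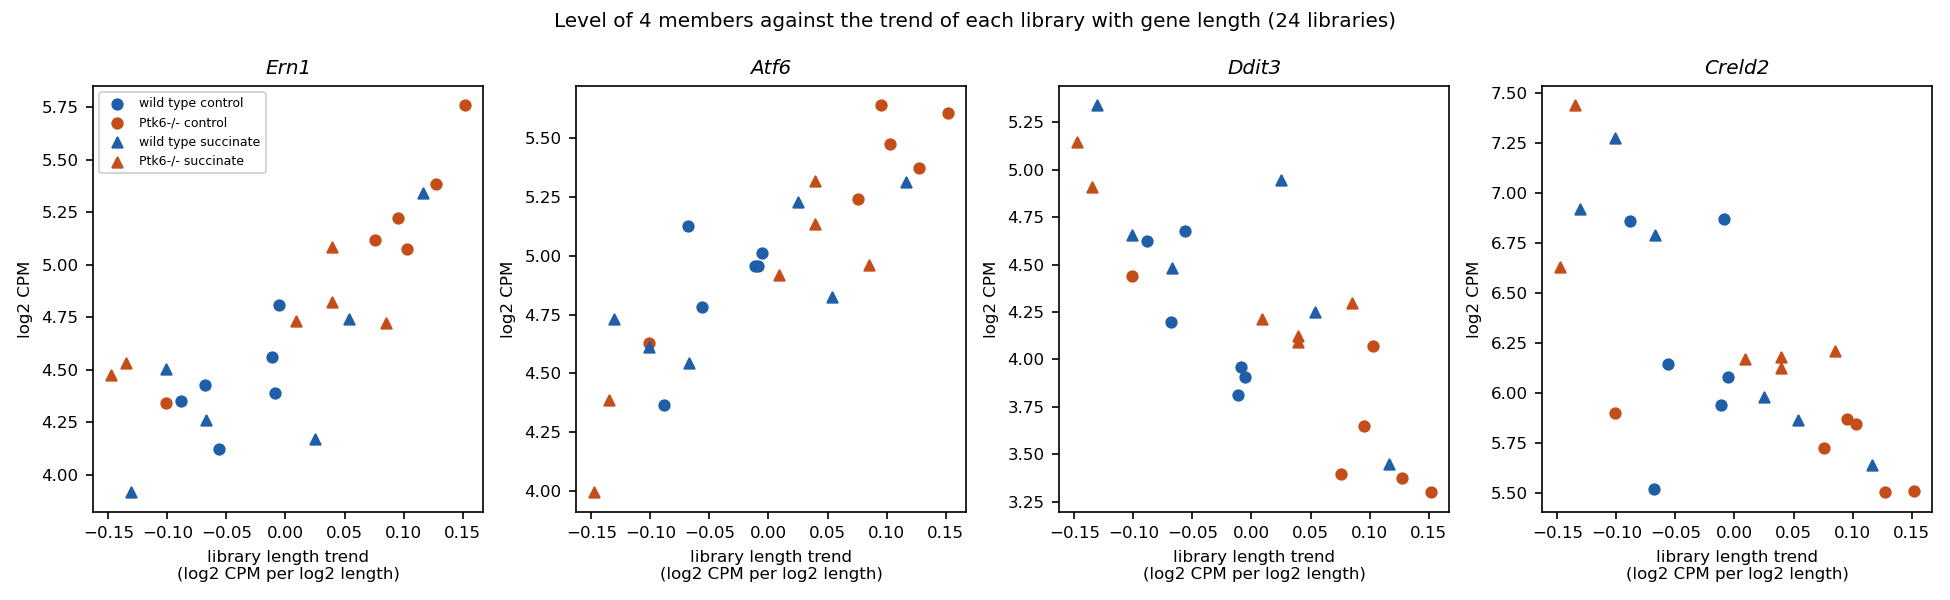
Log2 CPM of Ern1, Atf6, Ddit3 and Creld2 in 24 libraries against the length slope of each library. Blue is wild type, orange Ptk6-/-, circles water and triangles succinate. The 2 long genes climb with the slope (r of 0.83 and 0.87) and the 2 short genes descend (r of -0.82 and -0.72).

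Some of the genes varied together over the 24 libraries, given as a description since the libraries share groups and the length trend. Among chaperone and ATF4-side genes, Pearson's r was 0.84 between Creld2 and Sdf2l1, 0.75 between Hspa5 and Atf4, 0.75 between Atf4 and Creld2 and 0.56 between Hspa5 and Creld2. After removal of the length trend these were 0.75, 0.82, 0.72 and 0.78. Among the sensor genes r was 0.80 between Ern1 and Ern2, 0.73 between Ern2 and Atf6 and 0.69 between Ern1 and Atf6. Removal of the trend left 0.70, 0.54 and 0.21. Ern1 and Ddit3 had the most negative r, -0.84, which was -0.37 after removal. Xbp1 had an r of 0.62 with Ern1 and -0.12 with Hspa5 after removal. The highest r of Trib3, with Atf4, was 0.45. Within groups, after subtracting each group's mean and the trend, r was 0.80 for Creld2 and Sdf2l1, 0.78 for Hspa5 and Atf4, 0.70 for Hspa5 and Creld2 and 0.64 for Atf4 and Creld2. Among the sensor genes it was 0.56 for Ern1 and Ern2 and 0.31 for Ern2 and Atf6, but -0.15 for Ern1 and Atf6, and Xbp1 had 0.35 with Ern1 and 0.28 with Ern2.

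**Figure D4:**
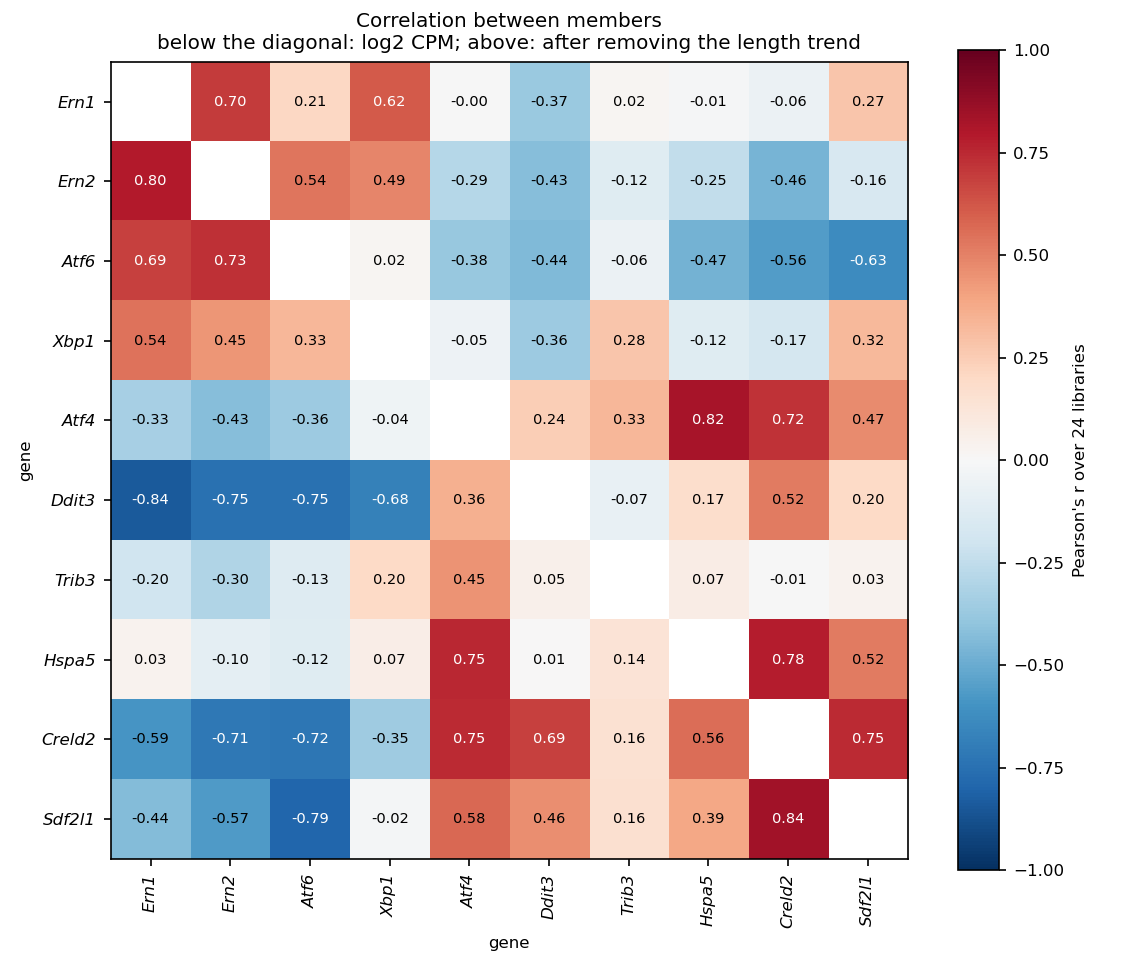
Pearson's r between the 10 genes over 24 libraries, on log2 CPM below the diagonal and after removing each library's length trend above it. Hspa5, Atf4, Creld2 and Sdf2l1 form a block with r of 0.47 to 0.82 above the diagonal, and the negative r between Ern1 and Ddit3 goes from -0.84 below it to -0.37 above it.

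The genes most like each member in log2 CPM over the 24 libraries were listed among all tested genes with a named symbol. For 3 of the 10 these included a gene of the ER protein folding list: Manf, an ER-resident secreted factor, for Creld2 (r = 0.94), Dnajb11, a BiP co-chaperone, for Sdf2l1 (0.86) and Pdia3, an ER disulfide isomerase, for Atf4 (0.90). Among the others, the top genes were Setd3 for Hspa5 (0.92), Csnk1g3 for Xbp1 (0.92), Esrp2 for Ern2 (0.91), Epc1 for Atf6 (0.94), Mrpl51 for Ddit3 (0.95) and Prr15 for Trib3 (0.82). After removal of the length trend the r of Epc1 with Atf6 was 0.76 and that of Mrpl51 with Ddit3 0.87.

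The wider pathway was followed with 5 lists of 72 tested genes in all: ER chaperones and oxidoreductases (16 genes), ER-associated degradation (14), PERK and the integrated stress response (19), ATF6 proteases and the CREB3 family (8) and translocation and secretion (15). Over the 14 comparisons 1 call was made among them. Sec24d, a COPII coat subunit that carries cargo out of the ER, rose in Ptk6-/- control males by 1.03 ± 0.23 on the log2 scale (edgeR adjusted p = 0.0464). With the offset for gene length its difference was 0.86, under the 2-fold limit. The call was lost when any 1 of the 6 libraries was left out: without the 18S-rich wild type male 1 the difference was 0.81 ± 0.14 (adjusted p = 0.0321), and without each of the other libraries the adjusted p ran from 0.0605 to 0.142. In that comparison 13 of the 72 were higher and 12 lower at an unadjusted p under 0.05, against 25.2% of all genes tested.

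In control males the other lists held no call. Creb3l1 (0.60 ± 0.11, adjusted p = 0.0355) and Creb3l2 (0.73 ± 0.14, adjusted p = 0.0355), ER-anchored transcription factors cut by the same proteases as ATF6, were below the 2-fold limit. So were Edem3 of ER-associated degradation (0.65 ± 0.13, adjusted p = 0.0407) and the folding enzymes Ppib (-0.64 ± 0.11, adjusted p = 0.0311) and Fkbp2 (-0.78 ± 0.17, adjusted p = 0.0438). Without wild type male 1 these 5 were at 0.60, 0.86, 0.63, -0.59 and -0.61 in the order named, and the adjusted p of Edem3 was 0.0627. Without Ptk6-/- male 2 or 3, or wild type male 2 or 3, none of the 5 kept an edgeR adjusted p under 0.05 (0.0835 to 0.134). With the offset for gene length the 5 differences were 0.72, 0.51, 0.46, -0.61 and -0.51 in the same order. Sel1l had a difference of 0.50 ± 0.12, and Eif2ak3, which encodes PERK, 0.44 ± 0.13, or 0.25 and 0.27 with the offset. Ppp1r15a, the stress-induced phosphatase subunit, had 0.66 ± 0.21. In control females Creb3l1 was the list gene with the smallest p (1.41 ± 0.30, adjusted p = 0.367), followed by Selenos, a degradation factor of the ER membrane, at -0.70 ± 0.23 and Edem3 at 0.51 ± 0.20. With the offset these 3 were at 1.51, -0.38 and 0.36. Fkbp2 had -0.79 ± 0.38 and Sec24d 0.82 ± 0.37 there, and Ppp1r15a had -0.48 ± 0.25, the other direction than in males, with an interaction of -1.14 ± 0.33 (adjusted p = 0.999).

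For succinate over all mice, 10 of the 72 were higher and 3 lower at an unadjusted edgeR p under 0.05, against 16.1% of all genes tested, and 5 of the 16 chaperones and oxidoreductases were higher and 0 lower. Ero1a and Ero1b, the oxidases that renew disulfide isomerases, had differences of 0.48 ± 0.15 and 0.35 ± 0.12 (adjusted p = 0.138 and 0.184). Atf5, a transcription factor of the integrated stress response, had 0.72 ± 0.17 with an adjusted p of 0.0468 and was below the 2-fold limit, and Ppp1r15a had 0.44 ± 0.15. Among translocation genes Sec61a1 had -0.34 ± 0.12 and Spcs3 0.36 ± 0.15, and among degradation genes Derl2 had 0.32 ± 0.18 and Selenos 0.27 ± 0.15. The median difference of the chaperone list was 0.25, against -0.0025 over all genes and -0.0086 over the 10 genes. For the interaction of genotype and succinate in females, 54 of the 72 lay above 0 and 18 below, with a median of 0.28 against -0.05 over all genes, and 0 were called. At an unadjusted edgeR p under 0.05, 0 of the 72 were higher and 2 lower in that interaction, against 6.46% of all genes tested. The medians of the lists and of the 10 genes pointed in different directions between comparisons.

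**Figure D5:**
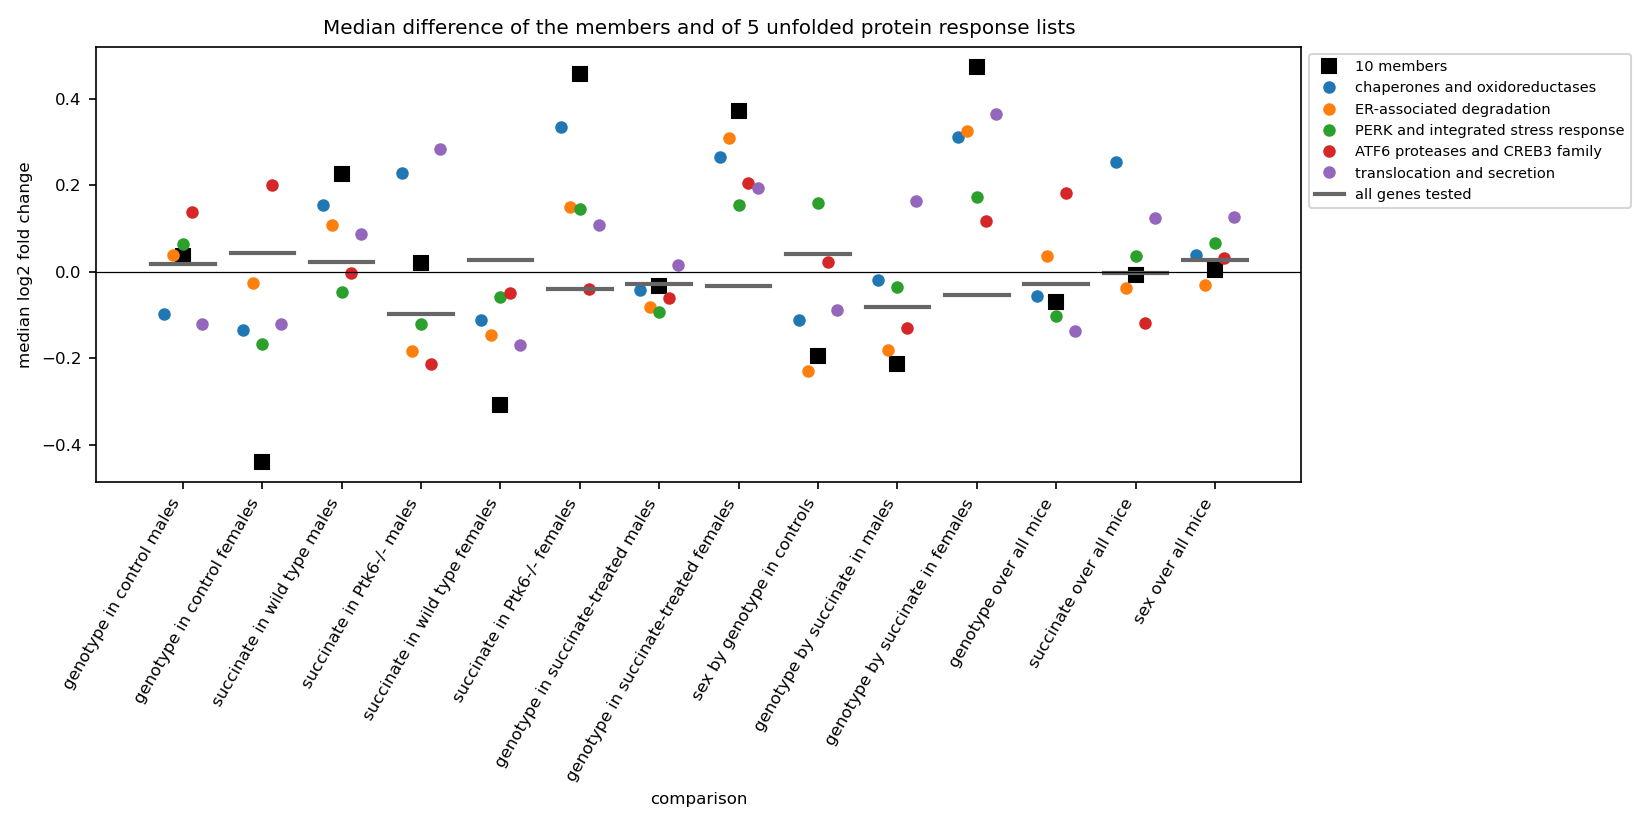
Median log2 fold change of the 10 genes (squares) and of 5 pathway lists (circles) in the 14 comparisons, with the median over all genes tested as a grey line. The 10 genes run from -0.44 for genotype in control females to 0.47 for the interaction of genotype and succinate in females, and the lists run from -0.23 to 0.37.

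Secretory cell markers were set beside these genes because such cells carry much ER. Paneth markers (12 genes) summed to 7181 to 17984 CPM in Ptk6-/- control males and to 19729 to 22168 CPM in wild type control males, without overlap. This was the comparison where the sensor genes read higher without passing the test. Plasma cell markers (13 genes) summed to 6417 to 12961 against 12102 to 14122 CPM there. Of these 13, 9 lay lower and 4 higher in Ptk6-/- control males, with 3 in each direction at an unadjusted edgeR p under 0.05. Their median log2 difference was -0.35, or -0.077 with the offset for gene length. Goblet markers summed to 12790 to 16242 against 12096 to 12973 CPM. The goblet sum and the list differed in direction: 8 of 12 goblet markers tested lay lower in Ptk6-/- control males (6 at an unadjusted edgeR p under 0.05) and 4 higher (2 at that p, 1 of them called), with a median log2 difference of -0.23. Over the 24 libraries the summed Paneth level had an r of -0.75 with Atf6, -0.61 with Ern1, 0.64 with Creld2 and 0.64 with Ddit3, and the summed goblet level an r of -0.39 with Ern2. Smooth muscle markers (10 genes) had an r of 0.74 with Ddit3 and -0.73 with Ern1. These r were computed without removing the length trend, and each of the ER stress genes named with them also varied with the length slope. Every marker of these lists was above 3 counts in some library, and their part in the differences was not tested. Tuft cell markers (14 genes) summed to 176 to 519 CPM in wild type and 249 to 533 CPM in Ptk6-/- succinate females and to 61 to 167 CPM in succinate males. B cell markers (9 genes) summed to 16 to 149 CPM and pancreatic acinar markers (9 of 14 matched) to 17 to 90 CPM over all libraries, with Prss2 at or under 3 counts in each.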

How the data were processed

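Distal jejunum RNA of 24 mice was sequenced by the authors from stranded poly(A) libraries, with reads mapped by HISAT2 and assembled by StringTie per the study's methods. The counting program and annotation are not given in the sources used here. The deposited counts are whole numbers without normalization, and the deposited FPKM values were computed by the authors with ballgown. The submitters' processing notes name GRCm39; promoter windows are from RefSeq (GRCm38.p6), and no coordinates were converted.

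Counts were tested in R 4.3.3 with edgeR 4.0.16 (TMM, quasi-likelihood, Benjamini-Hochberg), over genes that reached 10 counts in 3 or more libraries of a comparison, with only its libraries in the fit. Printed CPM use TMM factors over all 24 libraries. The study's methods name DESeq2 with the same thresholds; DESeq2 1.42.0 was an alternative here, as were a block for the replicate number, a lowess offset for gene length (with that block and without), voom with sample quality weights (limma 3.58.1), size factors from DESeq2, every library at 10 counts or more, no count filter at all, limma on log2(FPKM + 1) and on log2(FPKM + 0.1) where mean FPKM reached 0.5, a joint fit of all 24 libraries, calls without the 2-fold limit, and the removal of each library in turn. Removal of the 3 libraries that stand apart was chosen after seeing the data. Relative gene length came from the ratio of counts to FPKM, and likeness used log2 CPM with a prior count of 2. The test was also run on simulated data, and the outcome is not reported here.

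The genes and lists were chosen with earlier results of these data known. Besides the 10 genes, the rule named the called genes of 5 pathway lists (at most 4 per list and comparison) or, where none was called, the 2 with the smallest p, some of which are printed. Likeness took 3 genes per gene, without Gm and Rik names, of which the first or a list gene is printed; for Ern1 it is not reported here. Same-numbered libraries were not paired: in none of 8 comparisons were all 3 correlations of their deviations over 0.1. No pair of libraries had identical counts.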

Additional observations from a re-analysis of the deposited data

How the results depend on the processing

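The number of members called was 0 in all 14 comparisons, and it stayed 0 under every alternative except these. For genotype in control females it was 1 with DESeq2 (Trib3), 3 with voom and sample quality weights (Ern1, Ern2, Trib3) and 0 to 4 when each library was left out, the 4 without Ptk6-/- control female 3. For succinate in wild type males it was 1 with voom (Ern2) and 0 to 2 without each library, the 2 without succinate male 1. For genotype in succinate-treated males it was 1 with voom (Ern2). The cause was not tested. With the replicate block, alone or with the length offset, 0 members were called in each comparison, and the numbers did not pair the libraries.

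Of 3240 log2 fold changes under an alternative, covering 140 results, 3029 stayed within 1 standard error of the value reported, 199 moved further without a call and 12 became calls with the direction kept. In 189 the sign was the other one, all without a call. Of 600 values for the 25 results with an unadjusted p under 0.05, 2 had the other sign. Depth limits the low genes most, since the shallowest library held 15 counts of Trib3 and 21 of Ern2.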
